A study of Mus musculus with 8 samples.

Results

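The 9 transcription factor genes of neurogenesis described here were followed through the dentate gyrus of adult mice by single-cell RNA sequencing: Neurog2, Insm1, Eomes, Neurod4, Neurod1, Tbr1, Neurod6, Bhlhe22 and Neurod2. They were chosen by name, as 9 of the 31053 genes in the count tables, and all 9 had unique molecular identifiers (UMIs, each standing for 1 captured transcript) in both libraries. The animals were male Nestin-GFP mice aged 8 weeks, in which regulatory sequence of the neural progenitor gene Nestin drives green fluorescent protein. TBI animals had received a controlled cortical impact and Control animals a sham craniotomy, and the dentate gyri on the operated side were taken on day 15. The labels list 4 animals per condition, while the text of the study gives other numbers. Cells of a condition were pooled and sorted for GFP, so each condition is 1 library with no replicate. All intervals are 95% intervals that cover counting error only, no test between conditions was possible, and the spread between animals is unknown.

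Adult-born granule neurons arise from radial-glia-like stem cells through dividing intermediate progenitors, neuroblasts and immature neurons. Proneural factors of the basic helix-loop-helix (bHLH) class pair with E proteins, bind E-box sequences and commit a progenitor to the neuronal fate, while Id and Hes proteins oppose them. Neurog2 acts early in glutamatergic lineages, the T-box factor Eomes (Tbr2) marks intermediate progenitors, and NeuroD factors act later, in differentiating neurons.

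The Control library held 3049 cells after filtering and the TBI library 5036, with medians of 6928 and 5663 UMIs per cell. No label ties either count table to a condition. The assignment was inferred from cell barcodes that the study lists by condition, of which 84 of 84 Control and 87 of 87 TBI barcodes were found in the table assigned to that condition and 0 in the other, and every direction between TBI and Control rests on it. The libraries shared 3 cell barcodes. Populations were clustered and named from marker genes with the 9 factors left out of both steps, which placed 7792 of 8085 cells. The neurogenic lineage comprised 365 radial-glia-like cells, 338 cycling progenitors, 890 early neuroblasts and 770 late neuroblasts, beside 103 Reln neurons, 132 stem-like astroglia and 1429 astrocytes. Lineage cells were shallower in TBI, with medians of 14445 and 11240.5 UMIs in radial-glia-like cells and 17164 and 11724 in cycling progenitors for Control and TBI. Levels are UMIs per 1000000 UMIs of all genes except Malat1 (CPM), summed over the cells of a population. They come from the 3′ ends of transcripts, and are compared between populations for 1 gene, not between genes.

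The name radial-glia-like goes only partly with the markers. These cells held 196 CPM of Hopx, 79.1 CPM of Gfap and 73.5 CPM of Aldoc, all radial glia genes, against 1481, 393 and 2869 CPM in the stem-like astroglia, which were named in part from Hopx and Gfap. The other genes set for this check are not given here. Without thinning, 124 of 145 Control and 196 of 220 TBI cells also held Eomes, the intermediate progenitor marker. Neurog2 was found in 110 of the 145 and 148 of the 220. Levels in radial-glia-like cells are therefore not levels in stem cells alone. The 8 oligodendrocyte markers summed to 157 CPM in the Control and 864 CPM in the TBI radial-glia-like cells, and the part of this difference in the results was not tested.

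Neurog2 (chr3:127633135-127635631, plus strand, GRCm38, 2 exons) encodes a proneural bHLH factor that starts the glutamatergic programme. Its level in radial-glia-like cells was 378 CPM in Control (interval 351 to 405) and 364 CPM in TBI (340 to 388). In cycling progenitors it was 217 CPM in Control and 214 CPM in TBI. The gene was thus higher in radial-glia-like cells than in cycling progenitors, by more than counting error in either library. Early neuroblasts were split into a first cluster led by Mfng and Tac2 and a second led by Ebf1 and Tubb3. Neurog2 was at 118 CPM in Control and 133 CPM in TBI in the first, and at 24.6 and 13.5 CPM in the second. Late neuroblasts held 14.3 CPM in Control and 9.92 CPM in TBI.

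Insm1 (chr2:146221921-146225020, plus strand, 1 exon) encodes a zinc-finger factor that promotes the generation of intermediate progenitors. It had its highest level in cycling progenitors, at 299.5 CPM in Control (280 to 320) and 251 CPM in TBI (230 to 274). S-phase and mitotic progenitors held 293 and 265 CPM over both libraries, and their intervals (272 to 315 and 245 to 287) overlapped. Radial-glia-like cells were at 144 CPM in Control and 128 CPM in TBI. Unlike Neurog2, Insm1 was higher in the dividing cells than in the radial-glia-like cells in both libraries. Its level was 77.0 and 60.5 CPM in early neuroblasts, and 42.3 and 30.4 CPM in late neuroblasts, for Control and TBI.

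Eomes (chr9:118478212-118486132, plus strand) spanned the progenitor stages and the first neuroblasts. Radial-glia-like cells held 750.5 CPM in Control (713 to 789) and 667 CPM in TBI (635 to 700). Cycling progenitors were lower, at 520.1 CPM in Control and 572 CPM in TBI. The first early neuroblast cluster had the highest level, 892 CPM in Control and 867 CPM in TBI. The other neuroblast clusters were lower: 452 and 391 CPM in the second early cluster, 169.5 and 157 CPM in the first late cluster (led by Calb2), and 83.3 and 95.6 CPM in the second late cluster (led by Gal and Sema5a). An antisense gene, Gm33460, overlaps Eomes exons on the other strand.

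Neurod4 (chr10:130268152-130280240, minus strand, 2 exons), a bHLH factor of early neuronal differentiation, followed the same stages at low counts. It was at 56.7 CPM in Control and 60.3 CPM in TBI in radial-glia-like cells, and at 52.7 and 62.8 CPM in cycling progenitors. In the first early neuroblast cluster it was at 88.9 CPM in Control (76.0 to 103) and 85.2 CPM in TBI (74.7 to 96.7). The second early cluster held 31.5 and 31.2 CPM. Over whole populations, radial-glia-like cells (58.7 CPM), cycling progenitors (56.9 CPM) and early neuroblasts (60.9 CPM) could not be ordered, since their intervals overlapped.

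Neurod1 (chr2:79452521-79456751, minus strand, 2 exons), a bHLH factor required for the survival and maturation of adult-born granule neurons, was highest in neuroblasts. Radial-glia-like cells held 84.8 CPM in Control (72.6 to 98.4) and 68.0 CPM in TBI (58.1 to 79.1). Cycling progenitors held 235 CPM in Control (217.5 to 253) and 242 CPM in TBI (221 to 265). Neurog2 and Neurod1 thus stood in opposite order in these 2 populations, in both libraries. Neurod1 was at 635 and 603 CPM in the first early neuroblast cluster, 1096 and 1057 CPM in the second, 1213 and 1208 CPM in the first late cluster, and 1040 and 1099 CPM in the second late cluster, for Control and TBI. Exons of Cerkl on the same strand and of Gm26755 on the other overlap Neurod1, so reads from the shared bases may be lost or misplaced, which was not tested.

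Neurod2, Neurod6 and Bhlhe22 formed the late group. Neurod2 (chr11:98325415-98329648, minus strand, 2 exons), a bHLH factor of neuronal maturation, was nearly absent from progenitors, at 0.493 CPM in Control and 1.62 CPM in TBI in radial-glia-like cells, from 1 and 4 UMIs. It reached 65.5 and 51.1 CPM in early neuroblasts and 240.5 and 193 CPM in late neuroblasts. Neurod6 (chr6:55677822-55681263, minus strand, 2 exons), a relative expressed in differentiating glutamatergic neurons, was at 2.96 and 11.7 CPM in radial-glia-like cells. It stood at 89.7 and 80.4 CPM in early neuroblasts and at 141 and 103 CPM in late neuroblasts. Bhlhe22 (chr3:18054174-18057517, plus strand, 1 exon), a bHLH transcriptional repressor that helps to specify neuronal identity, was at 10.8 and 9.71 CPM in radial-glia-like cells and 34.2 and 23.3 CPM in cycling progenitors. It was at 130 and 122 CPM in early neuroblasts, and at 302 and 266 CPM in late neuroblasts.

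The late group separated along the neuroblast clusters. Neurod2 was at 13.0 CPM over both libraries in the first early cluster and 107 CPM in the second, and at 216 and 225 CPM in the first and second late clusters, whose intervals overlapped. Neurod6 was already at 57.6 CPM in the first early cluster and 115 CPM in the second, and was higher in the first late cluster (142 CPM, 129 to 155.5) than in the second (103 CPM, 91.1 to 115). Bhlhe22 was at 65.7, 194, 299 and 269 CPM in the same order of clusters, with overlapping intervals in the last pair.

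**Figure D1:**
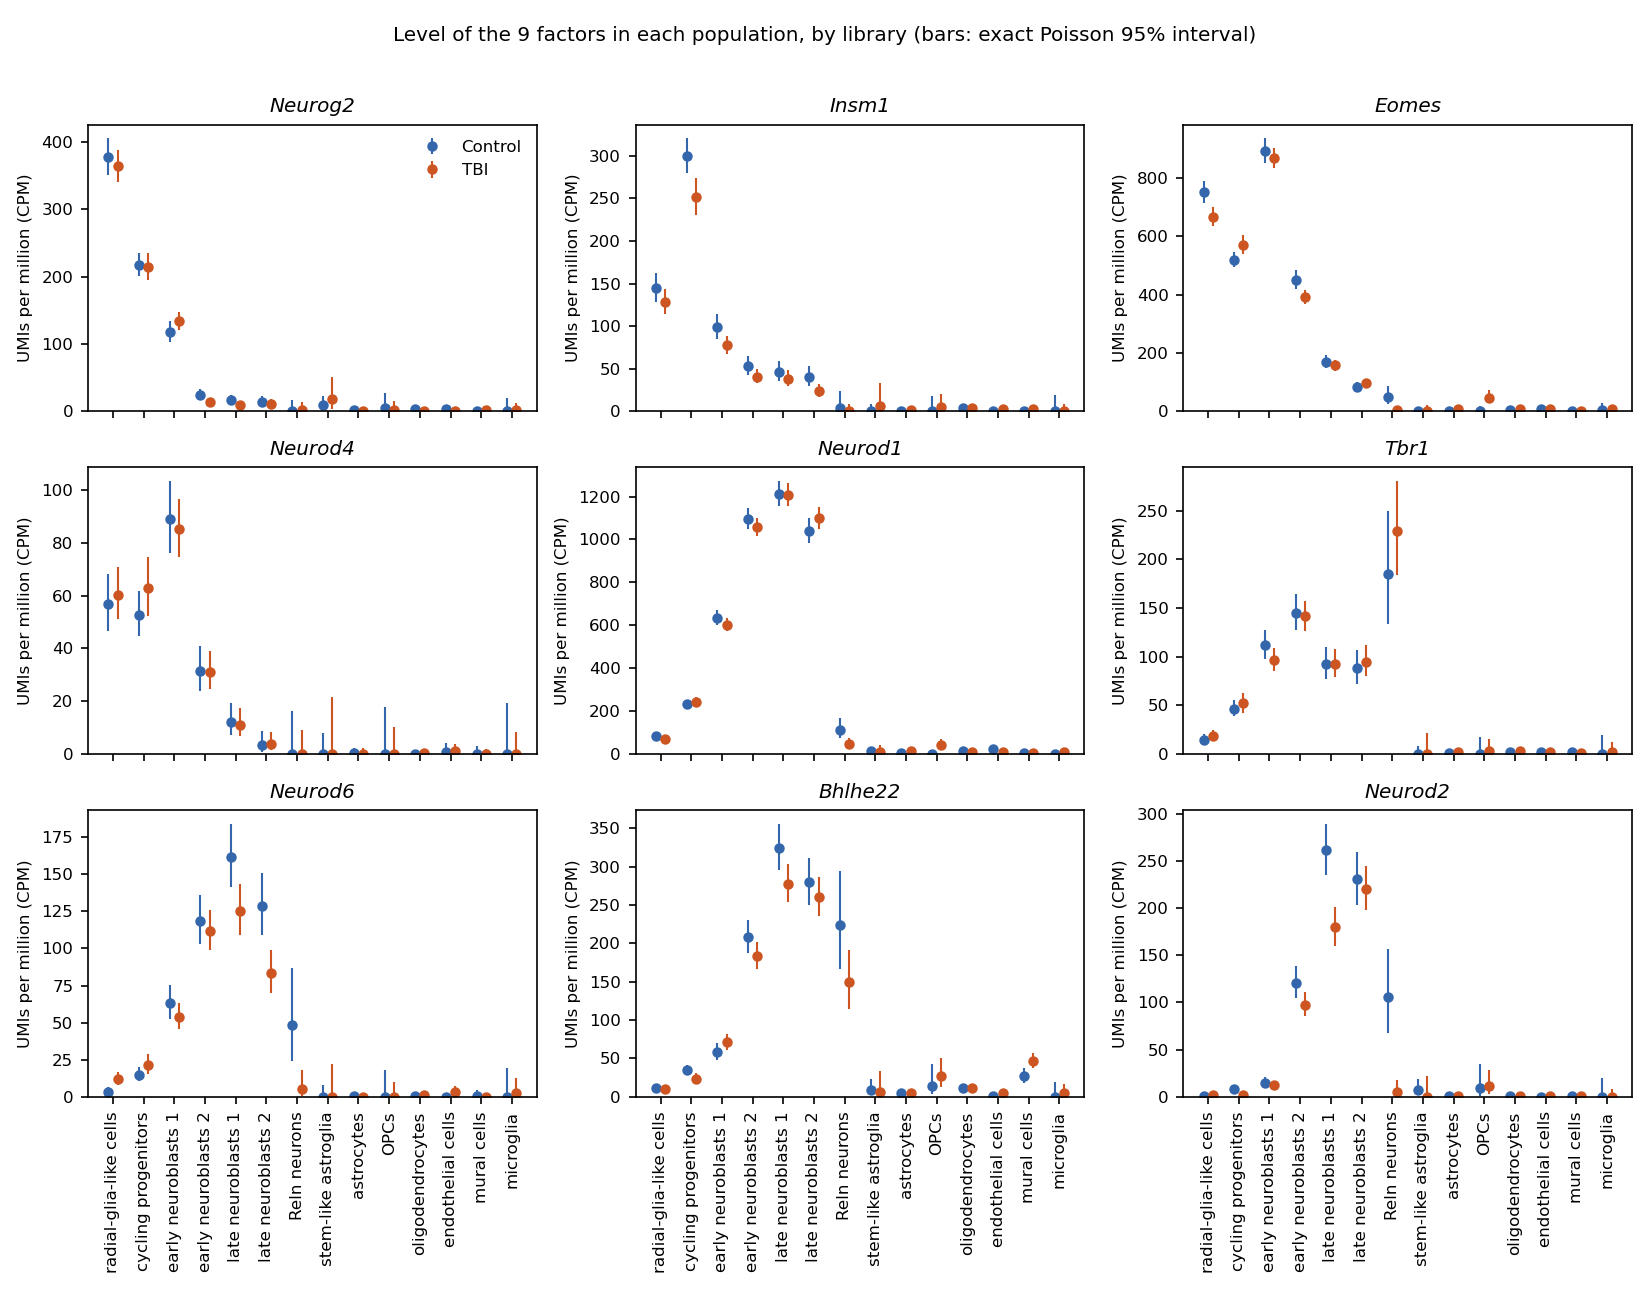
Level of each of the 9 factors (vertical axis, CPM, linear from 0 and scaled per gene) in 14 populations (horizontal axis), for the Control library (blue) and the TBI library (orange), with exact Poisson 95% intervals. The highest levels pass from radial-glia-like cells (Neurog2) and cycling progenitors (Insm1) through early neuroblasts 1 (Eomes, Neurod4) to late neuroblasts (Neurod1, Neurod6, Bhlhe22, Neurod2), with Tbr1 highest in Reln neurons.

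Upstream sequence is shown for Neurod1, Neurod2 and Neurod6, NeuroD-family members that are all low in radial-glia-like cells and high in neuroblasts, to show which E-boxes, the motif bHLH factors recognise, stand near their starts. The sequences are from RefSeq (GRCm38.p6), from the 250 bases before the start and outside annotated exons, 5′ to 3′ on the gene's strand, which is the minus strand for all of them. Capitals mark CANNTG, the E-box, which is its own reverse complement and so is found on both strands at once. The stretches are chr2:79456786-79456886, chr11:98329649-98329895 and chr6:55681264-55681513.
Neurod1: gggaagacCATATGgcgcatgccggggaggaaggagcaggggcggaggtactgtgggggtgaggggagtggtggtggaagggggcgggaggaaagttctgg
Neurod2: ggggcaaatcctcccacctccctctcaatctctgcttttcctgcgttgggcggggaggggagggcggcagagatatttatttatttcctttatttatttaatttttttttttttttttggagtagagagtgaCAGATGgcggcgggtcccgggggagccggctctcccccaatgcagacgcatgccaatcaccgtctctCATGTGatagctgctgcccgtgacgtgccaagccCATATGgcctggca
Neurod6: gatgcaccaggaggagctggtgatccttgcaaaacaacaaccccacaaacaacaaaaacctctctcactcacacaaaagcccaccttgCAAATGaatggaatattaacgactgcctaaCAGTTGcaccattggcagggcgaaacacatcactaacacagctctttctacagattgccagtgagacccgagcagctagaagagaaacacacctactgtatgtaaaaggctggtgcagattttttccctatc
The Neurod2 stretch holds 3 E-boxes, of which 1 is CAGATG, the form that neurogenins and NeuroD factors favour. The Neurod6 stretch holds 2 and the Neurod1 stretch 1. RefSeq promoters were matched for 7 of the 9 genes, with 8 starts. CANNTG was found in 4 of these 8 windows, against 66.2% of 32851 windows of the same length over all genes, and CAGATG in 1 of 8, against 14.4%. The windows of Neurog2, Eomes and Neurod4 held no CANNTG. These matches describe letters, not binding.

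Tbr1 (chr2:61802930-61814114, plus strand), the T-box factor of postmitotic glutamatergic neurons, had a profile with 2 high points. Cycling progenitors held 46.4 CPM in Control and 51.9 CPM in TBI, and the second early neuroblast cluster 145 CPM (128 to 164) and 141 CPM (127 to 157). Late neuroblasts were lower, at 89.7 and 92.2 CPM. Reln neurons were at 185 CPM in Control (133 to 250) and 229 CPM in TBI (184 to 280).

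In the Reln neurons Tbr1 and Bhlhe22 were the 2 factors with at least 100 UMIs over both libraries. These cells were named from Reln and other neuronal markers, some of which, like Reln, are also in the list of Cajal-Retzius genes. The naming thus already favoured cells of that kind. The cells also held 475 CPM of Lhx1, 336.5 CPM of Ebf3 and 1229 CPM of Cacna2d2, genes of Cajal-Retzius neurons that the naming did not use. The interneuron genes Gad2 and Lhx6 were at 0 UMIs. The other genes of the list of 6 interneuron genes are not given here, so absence of the whole list is not claimed. Bhlhe22 was at 224 CPM in Control and 149 CPM in TBI. Neurog2 and Insm1 had 1 UMI each over both libraries, and Neurod4 had 0. Neurod2 had 24 UMIs in the 28 Control cells and 2 UMIs in the 75 TBI cells, and the 24 UMIs lay in 4 cells. Sox11 and Sox4, neuroblast genes, were likewise at 734 and 840 CPM in Control and 169 and 301 CPM in TBI, and the part of such cells in the Control values was not tested.

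A finer clustering gave 194 radial-glia-like cells led by Gpd1 and Ccnd1 and 168 led by Ung (DNA repair) and Mcm3 (replication licensing). Neurog2 was alike in both, at 377.5 CPM (352 to 404) and 362 CPM (338 to 388). Neurod1 was at 8.50 CPM (5.12 to 13.3) in the first and 144 CPM (129 to 160.5) in the second, and this order held in Control (6.01 and 164 CPM) and in TBI (10.5 and 127 CPM). Neurod4 stood at 19.7 and 96.8 CPM, and Tbr1 at 4.03 and 29.6 CPM. Dll1, the Notch ligand that proneural factors activate, had the opposite order, at 137 and 36.3 CPM. The Neurod1 of radial-glia-like cells therefore lay mostly in the cells led by Ung and Mcm3.

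Cycling progenitors also divided by factor. The 100 cells led by Cenpa and Ccnb2 held 338 CPM of Neurog2 and 137 CPM of Neurod1. The 88 cells led by Cdc20 and Ccnb1 held 102 CPM of Neurog2 and 256 CPM of Neurod1. Insm1 differed less, at 299 CPM (268 to 333) and 236 CPM (210.5 to 264). The remaining cycling cluster, 150 cells led by Hist1h2ae and Hist1h1b, stood at 58.4% of the gene's highest lineage cluster for Neurog2 and 22.5% for Neurod1. On this scale the Cenpa cluster was at 89.4 and 11.2%, and the Cdc20 cluster at 27 and 21%. The opposite order of Neurog2 and Neurod1 thus did not hold across all cycling progenitors. Among early neuroblasts, the 172 cells led by Neurod4 and Eomes themselves held 238 CPM of Neurog2 and 1062 CPM of Eomes, against 59.6 and 767 CPM in the 284 cells led by Tac2 and Pcp4.

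**Figure D2:**
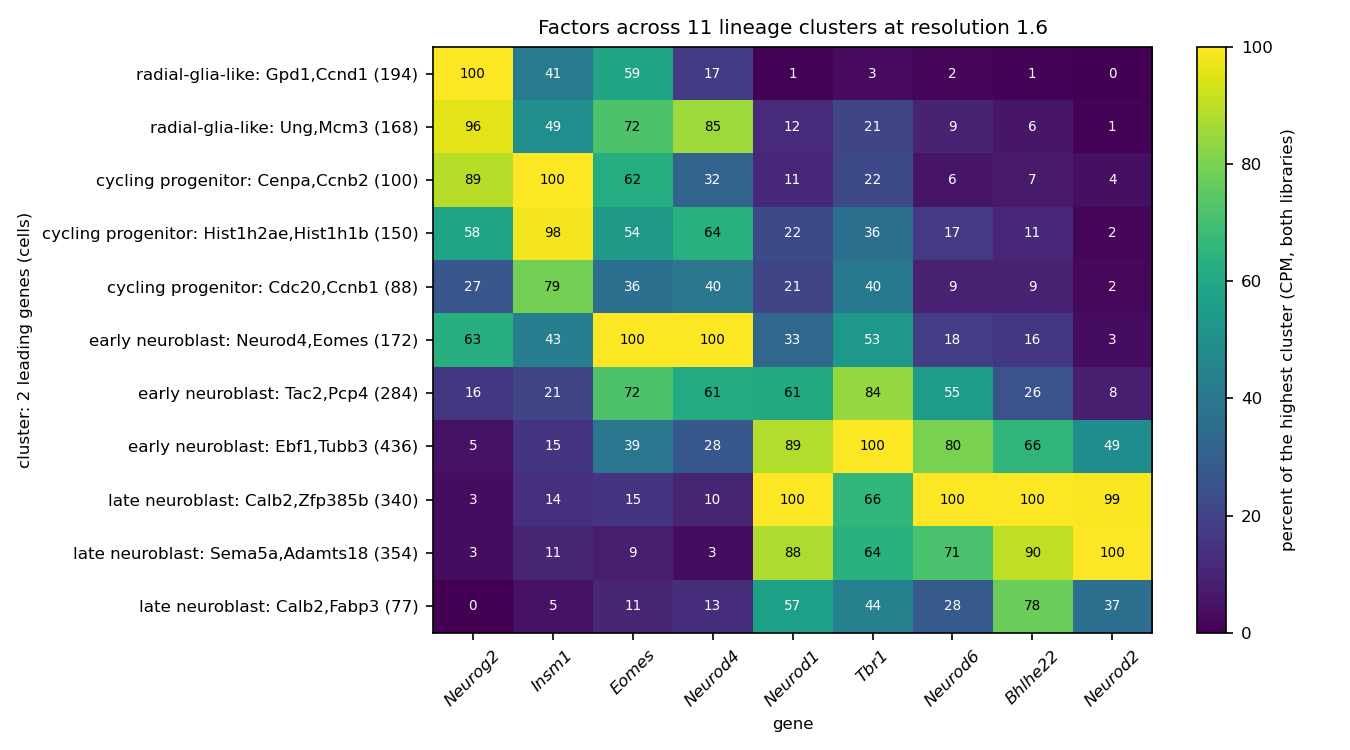
Level of each factor (columns) in the 11 lineage clusters of the finer clustering (rows, with 2 leading genes and the number of cells), as a percent of that gene's highest cluster, both libraries summed. Rows are grouped by named stage and, within a stage, by Hes5 level, not by measured time; Neurod1 is at 0.698% in the first radial-glia-like cluster and 11.8% in the second, while Neurog2 is at 100% and 95.9%.

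Shares of cells were compared after thinning every cell to 2000 UMIs. Eomes was detected in 67.9% of radial-glia-like cells, 58.5% of cycling progenitors, 63.6% of early neuroblasts and 18.3% of late neuroblasts. Without thinning the share was 87.7% in radial-glia-like cells (median 12084 UMIs), against 1.61% in oligodendrocytes (median 8799 UMIs), which should lack Eomes and held 0.64% after thinning. Neurod1 was detected in 12.3% of radial-glia-like cells, 26.3% of cycling progenitors, 72.4% of early and 82.6% of late neuroblasts, and in 0.832% of oligodendrocytes. Neurog2 was found in 35.9% of radial-glia-like cells and 24.2% of cycling progenitors, and in 0.064% of oligodendrocytes. For all 9 factors the interval of the share in its highest main population lay above those of oligodendrocytes, endothelial cells, mural cells and microglia. That population was picked by the factor's level in these same cells, so the comparison is description and not independent support.

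Pairs of factors were then examined in single cells thinned to 5000 UMIs. Among 358 radial-glia-like cells, Eomes was found in 90.7% of the 204 cells with a Neurog2 UMI (85.8 to 94.3%) and in 69.5% of the 154 cells without one (61.6 to 76.6%). The Control shares were 95.7 and 56.2%, and the TBI shares 86.6 and 75.5%, with overlapping intervals in TBI. Neurod1 was found in 21.6% of the radial-glia-like cells with Eomes (17.0 to 26.7%) and in 1.52% of those without (0.0384 to 8.16%). In cycling progenitors Neurod1 was found in 50.6% of cells with Eomes (44.3 to 56.8%) and 26.5% of cells without (16.5 to 38.6%). In these populations Neurod1 was thus seen more often with Eomes than without it.

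With Neurog2, Neurod1 was found less often than without it in both populations given next, with overlapping intervals. The same pair in the other populations, radial-glia-like cells among them, is not described here. Neurod1 was found in 40.9% of cycling progenitors with Neurog2 (32.6 to 49.6%) and 49.0% of those without (41.7 to 56.3%). In the first early neuroblast cluster the shares were 78.8% (71.2 to 85.1%) and 88.1% (83.9 to 91.6%). The later factors appeared in cycling cells that held Neurod1. Tbr1 was found in 31.3% of cycling progenitors with Neurod1 (24.0 to 39.4%) and 10.1% of those without (6.07 to 15.4%), and Bhlhe22 in 13.3% (8.34 to 19.8%) and 1.68% (0.347 to 4.82%). The finer clusters differ in several of these genes together, so shares over a whole population join cells of more than 1 stage.

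**Figure D3:**
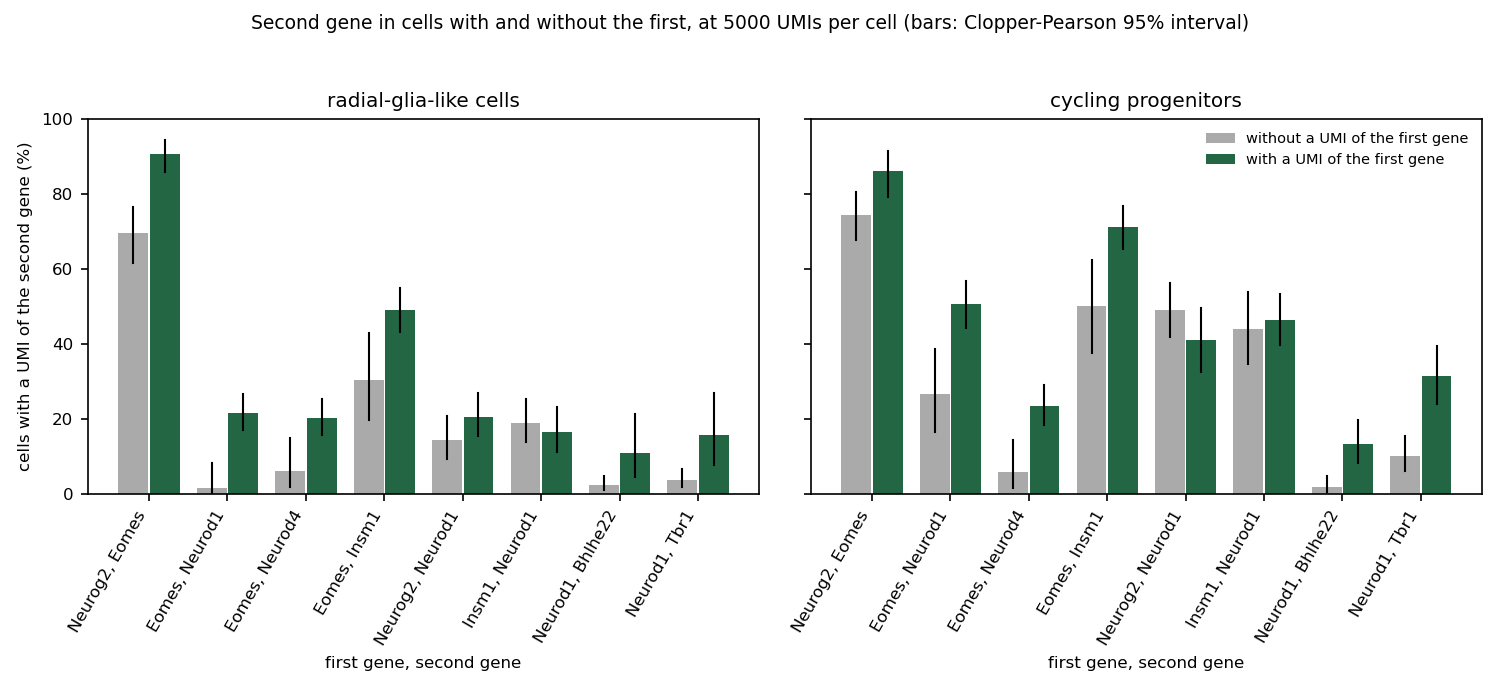
Percent of radial-glia-like cells (left) and cycling progenitors (right) with a UMI of the second gene, among cells without (grey) and with (green) a UMI of the first gene, after thinning to 5000 UMIs; vertical lines are Clopper-Pearson 95% intervals. Neurod1 stands higher in cells with Eomes than in cells without it (21.6 against 1.52% and 50.6 against 26.5%), while its differences by Neurog2 or Insm1 are smaller.

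The genes with the most similar profiles were sought among 12071 genes, by Pearson correlation of log2(CPM + 10) over 24 values from 12 populations in 2 libraries, which share depth and composition. Neurod4 was nearest to Eomes (r = 0.950), Insm1 (0.949) and Neurog2 (0.945). Insm1 was nearest to Gins1 (0.971), Ezh2 and Cenpj, and Neurog2 to Hmgn2 (0.955), Gm10282 and Neurod4. Neurod1 was nearest to Sstr2 (0.958), Scrt2 and Srrm4, Neurod2 to Cnih3 (0.972), Zfp385b and Dbndd1, and Neurod6 to Smim18 (0.982), Dbndd1 and Mmp24. Eomes was nearest to Neurod4, Mfap4 and Nup43, Tbr1 to Celsr3 (0.965), Chrnb2 and Slc17a6, and Bhlhe22 to Rab3a (0.939), Osbpl5 and Frmd3.

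The design asks whether the factors differ between TBI and Control within a stage. In the 4 main lineage populations none of the factors with at least 100 UMIs differed by 1.5-fold or more. The count was 0 of 7 in cycling progenitors, where 1.3% of all genes were higher and 1.78% lower past this fold. It was 0 of 5 in radial-glia-like cells (1.58% higher and 0.914% lower), 0 of 9 in early neuroblasts (1.06% and 0.986%) and 0 of 7 in late neuroblasts (0.681% and 1.59%). The median log2 ratio of the factors was 0.05, -0.17, -0.09 and -0.18 in these populations, against 0.00, 0.01, 0.01 and -0.02 over all genes tested.

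Differences under 1.5-fold were mostly toward lower levels in TBI. Insm1 had a TBI to Control ratio of 0.839 (0.750 to 0.937) in cycling progenitors, 0.888 (0.756 to 1.04) in radial-glia-like cells, 0.786 (0.667 to 0.926) in early and 0.718 (0.545 to 0.944) in late neuroblasts. The ratio was below 1 in all 4 populations, and also in each of the 7 clusters within the cycling progenitors and neuroblasts, from 0.879 in mitotic progenitors to 0.350 in the smallest late cluster, which held 4 UMIs. These clusters are parts of the same populations and libraries, so they add no replication. Neurod6 had a ratio of 0.731 (0.631 to 0.848) and Neurod2 of 0.803 (0.720 to 0.896) in late neuroblasts, and Bhlhe22 of 0.882 (0.801 to 0.970). The 8 oligodendrocyte markers summed to 647 CPM in Control and 240 CPM in TBI in the same late neuroblasts, each of the 8 with UMIs in both libraries, and their part in these ratios was not tested. In the second late cluster Neurod6 was at 128 CPM in Control and 83.6 CPM in TBI, a ratio of 0.651 (0.512 to 0.828) that passes 1.5-fold, as did 1.87% of genes toward lower and 1.04% toward higher levels there. Neurod2 was lower in the first late cluster, at 261 CPM in Control and 180 CPM in TBI (0.687, 0.589 to 0.802), short of 1.5-fold. The Neurod6 ratio in that first late cluster is not given here, so the lower Neurod6 is not placed in the second late cluster alone. In the second late cluster Neurod2 differed by less than its counting error (0.956, 0.814 to 1.12). These values are examples from several clusters, and how many factors passed in each cluster is not given here.

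The ratios of Neurog2, Neurod1, Tbr1 and Eomes lay on both sides of 1. Neurod1 had ratios of 1.02 (0.972 to 1.07) in late neuroblasts and 1.03 (0.916 to 1.16) in cycling progenitors, and 0.802 (0.645 to 0.998) in radial-glia-like cells. Neurog2 stood at 0.964 (0.874 to 1.06) in radial-glia-like cells and 0.986 (0.870 to 1.12) in cycling progenitors. At lower counts it was at 0.548 (0.336 to 0.886, 75 UMIs) in the second early neuroblast cluster and 0.692 (0.424 to 1.12, 73 UMIs) in late neuroblasts. Eomes was lower in TBI in radial-glia-like cells (0.889, 0.828 to 0.953) and higher in cycling progenitors (1.10, 1.02 to 1.19). Tbr1 had ratios of 0.918 (0.812 to 1.04) in early and 1.03 (0.867 to 1.22) in late neuroblasts. Neurod4 was at 1.19 (0.934 to 1.52) in cycling progenitors.

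At a lower bound of 1.25-fold, chosen after these values were seen, 1 of 7 factors was lower in cycling progenitors (Bhlhe22, 0.680), where 9.01% of all genes were lower. In early neuroblasts 2 of 9 were lower (Neurod2, 0.780, and Insm1), against 6.33% of genes, and in late neuroblasts 2 of 7 (Neurod6 and Insm1), against 9.14%. In radial-glia-like cells 0 of 5 passed, against 7.06% of genes. Among factors with at least 100 UMIs none was higher past 1.25-fold in these 4 populations, where 8.7% of genes were in cycling progenitors, 8.72% in radial-glia-like cells, 6.54% in early and 5.38% in late neuroblasts. Below that count, Neurod6 had 6 UMIs in Control and 29 in TBI in radial-glia-like cells, a ratio of 3.97 (1.62 to 11.7). These UMIs lay in 5 of 145 Control and 15 of 220 TBI cells, and a single TBI cell held 9 of the 29. The share of all genes past this ratio at such counts was not computed. In Reln neurons 1 of 2 factors passed 1.5-fold, Bhlhe22 with 51 and 60 UMIs in Control and TBI and a ratio of 0.665 (0.450 to 0.986), beside 2.4% of all genes lower and 2.32% higher. A single Control cell held 14 of the 51 UMIs, and averaged per cell the ratio was 1.08. The ratio no longer passed 1.5-fold without integration (0.721) or without doublets (0.685).

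**Figure D4:**
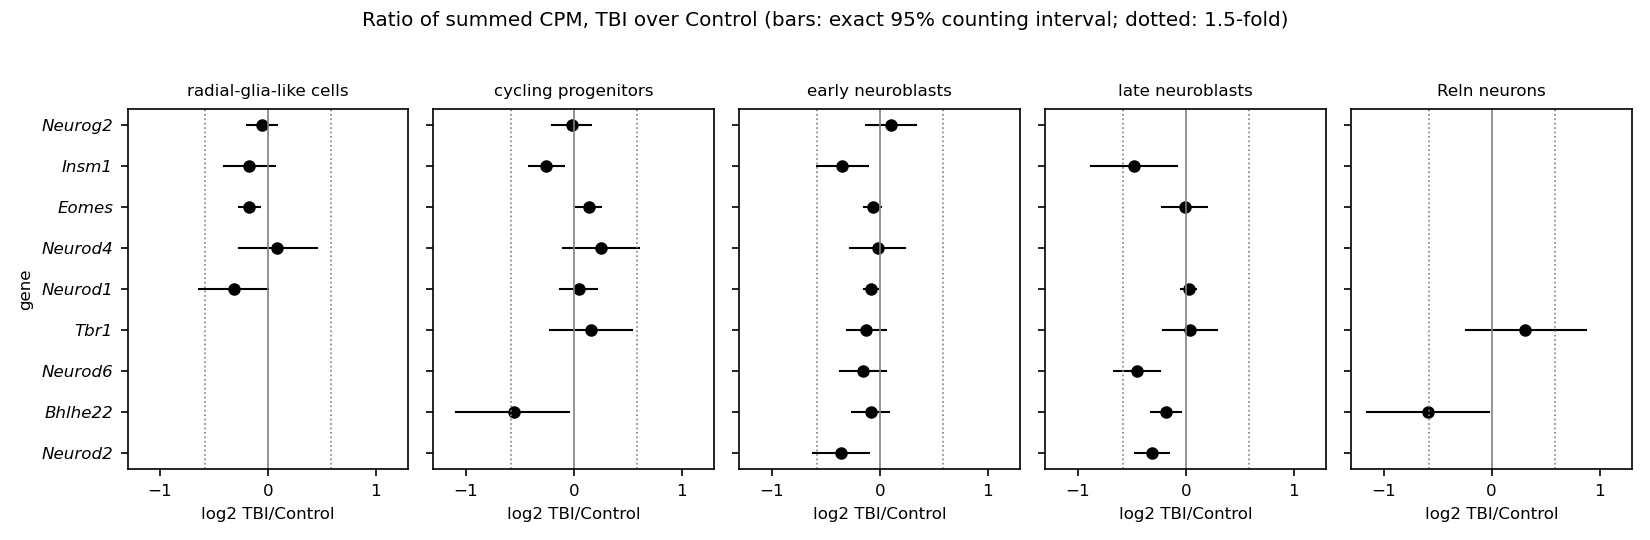
log2 ratio of the summed CPM in TBI over Control (horizontal axis) for the factors (rows) with at least 100 UMIs in 4 lineage populations and in Reln neurons; lines are exact 95% counting intervals and dotted lines mark 1.5-fold. Insm1 lies left of 0 in the 4 populations where it is shown, and Neurod6 and Neurod2 lie left of 0 in late neuroblasts, all within 1.5-fold; Bhlhe22 in Reln neurons passes it, but not without integration or without doublets.

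The partners and opponents of the factors were described from lists. The E proteins Tcf3, Tcf4 and Tcf12, with which proneural factors pair, were at 122, 3099 and 106 CPM in radial-glia-like cells and 57.8, 4900 and 131 CPM in late neuroblasts, and 0 of 3 differed by 1.5-fold between TBI and Control in any of the 4 main lineage populations, where 0.681 to 1.58% of all genes were higher and 0.914 to 1.78% lower. Of the 8 Id, Hes and Hey inhibitors, 4 had enough UMIs in radial-glia-like cells and 1, Hes5, was lower past 1.5-fold, beside 0.914% of all genes. Hes5, a Notch target that represses proneural genes, was at 612.5 CPM in Control and 314 CPM in TBI (ratio 0.512, 0.467 to 0.560). It was also lower in cycling progenitors (0.556, 0.502 to 0.616) and early neuroblasts (0.589, 0.490 to 0.709). Past 1.5-fold, 1.78% and 0.986% of all genes were lower in these populations. How many of the other inhibitors could be compared or passed there is not given here. In the same radial-glia-like cells Neurog2 and Insm1 differed by less than their counting error, while Eomes and Neurod1 were lower in TBI by more than theirs. A link between Hes5 and these factors was not tested.

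Of the 12 proneural target genes, 9 could be compared in cycling progenitors and 1 was lower past 1.5-fold, beside 1.78% of all genes. This was Dll1, at 49.2 CPM in Control and 29.7 CPM in TBI (0.603, 0.438 to 0.821). None of 9 passed in radial-glia-like cells (1.58% of all genes higher and 0.914% lower), 0 of 10 in early (1.06 and 0.986%) and 0 of 10 in late neuroblasts (0.681 and 1.59%). The proneural genes Atoh1, Neurog3 and Ptf1a had 0 UMIs in all of these populations, and Neurog1 was at 8.44 CPM in radial-glia-like cells. Of the 11 granule neuron factors, 1 of 11 passed in late neuroblasts, beside 0.681% of all genes higher. This was Bcl11b (12.9 and 19.8 CPM; 1.54, 1.01 to 2.39).

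Astroglia held few UMIs of the 9 factors. The stem-like astroglia had 0 UMIs of Eomes, and 0 of 116 thinned cells allow a share of cells with a UMI of up to 2.59% by 3 counts, or 3.13% by the Clopper-Pearson limit. Neurog2 had 7 UMIs there, or 11.2 CPM, which is 22.5% of its neuroblast level (9.05 to 46.4%), while the 7 neuroblast genes used as a check for free RNA stood at 0.3 to 4.23%. Its neuroblast level, 49.9 CPM, is below its level in radial-glia-like cells and cycling progenitors. The percentage is therefore not comparable with those of the check genes, and these UMIs are not read as expression. Insm1 had 1 UMI. In astrocytes Neurod1 had 31 UMIs and Eomes 17, at 0.795% and 0.936% of their level in neuroblasts. The 7 check genes stood at 0.566 to 0.960% of their neuroblast level in astrocytes. In TBI astrocytes all 7 were higher than in Control, for example Igfbpl1 at 1.37 and 0.388%, beside Neurod1 at 1.35 and 0.423% and Eomes at 1.92 and 0.276%. The Neurod1 and Eomes counts, close to those of the check genes, are not read as expression in astrocytes. Bhlhe22 (20 UMIs) was above the check genes over both libraries, at 2.57% (1.57 to 3.97%). Neurog2 (5 UMIs, all in Control) at 2.45% (0.794 to 5.71%), Insm1 (4 UMIs) at 1.8% (0.49 to 4.6%) and Tbr1 (7 UMIs) at 1.57% (0.63 to 3.23%) had higher values too, with intervals that reach into the range of the check genes. For Neurog2 and Insm1 the neuroblast reference is again below the progenitor level.

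Bhlhe22 was the factor furthest above the check genes in mural cells. Mural cells are the pericytes and smooth muscle cells of vessels, and the class here also took in a cluster of 30 cells led by Spp1 and Dcn. Mural cells held 38.9 CPM, 20.5% of the neuroblast level, while the 7 check genes were at 0.483 to 1.02% there. After thinning, 8.06% of 869 mural cells had a Bhlhe22 UMI (6.33 to 10.1%; 12.1% without thinning, median 3392 UMIs), against 0.375% of 799 endothelial cells (0.0775 to 1.09%; 1.06% without thinning, median 3764 UMIs). Within mural cells it lay in the cluster led by Atp13a5 and Vtn (58.4 CPM, 46.1 to 73.0) and that led by Kcnj8 (45.3 CPM, 33.2 to 60.4), which are pericyte genes. The cluster led by the smooth muscle genes Acta2 and Tagln held 3 UMIs, or 4.31 CPM (0.889 to 12.6).

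Over all mural cells Bhlhe22 was at 26.4 CPM in Control and 46.2 CPM in TBI, a ratio of 1.75 (1.16 to 2.70), in a population where 6.68% of genes were higher and 4.87% lower past 1.5-fold. The median log2 ratio of all genes tested in mural cells was 0.10. The 8 oligodendrocyte markers summed there to 658 CPM in Control and 333 CPM in TBI. Within the 778 cells of the Atp13a5 and Kcnj8 clusters it was at 48.7 CPM in Control (33.3 to 68.8) and 54.2 CPM in TBI (43.7 to 66.6), a ratio of 1.11 (0.737 to 1.72). These clusters made up 583 of the TBI and 195 of the Control mural cells. The difference over all mural cells was thus not seen within the clusters that carry the gene.

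Oligodendrocytes held 11.5 CPM of Bhlhe22, 6.06% of the neuroblast level, against 1.13 to 2.80% for the 7 check genes. It lay mainly in a cluster led by Mal and Lpar1 (21.2 CPM, 16.5 to 26.8) and one with Ptgds and Hcn2 among its leading genes (23.1 CPM, 16.8 to 30.9), while the other 5 clusters of oligodendrocytes were between 2.22 and 8.71 CPM. Neurod1 and Eomes, at 1.26 and 1.43% of their neuroblast level, stayed within the range of the check genes. Of the 2 factors with 100 UMIs in oligodendrocytes, Neurod1 and Bhlhe22, 0 of 2 differed by 1.5-fold between TBI and Control, where 0.941% of genes were higher and 0.836% lower. Insm1 (58 UMIs) and Neurog2 (24 UMIs), whose neuroblast levels are below their progenitor levels, stood above that range in oligodendrocytes at 7.44 and 3.35%.

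**Figure D5:**
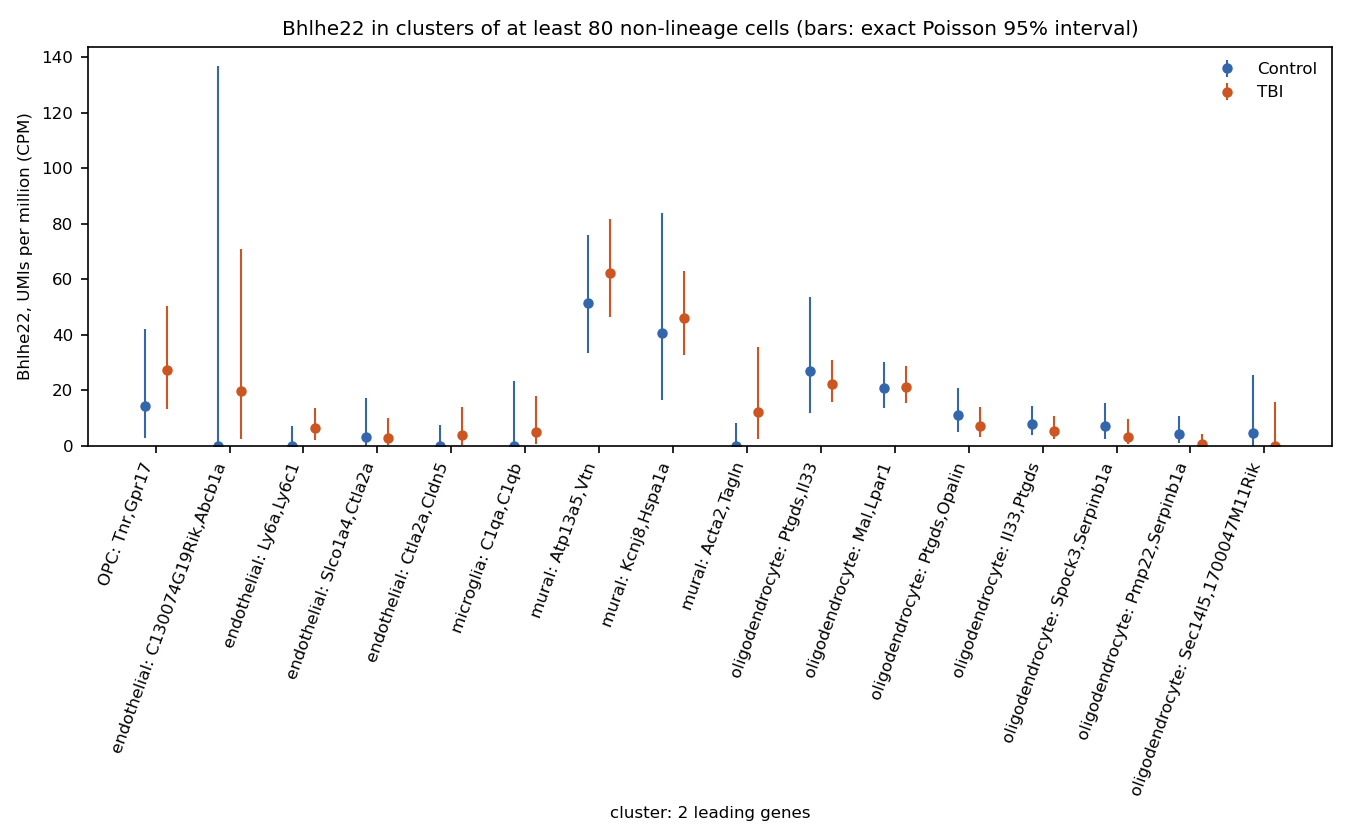
Level of Bhlhe22 (vertical axis, CPM) in the 16 clusters of non-lineage cells with at least 80 cells (horizontal axis, with 2 leading genes), for Control (blue) and TBI (orange), with exact Poisson 95% intervals. The mural clusters led by Atp13a5 (51.6 and 62.4 CPM) and by Kcnj8 (40.8 and 46.2 CPM) have the highest point values in both libraries; in Control the Kcnj8 cluster rests on 7 UMIs (16.4 to 84.0 CPM) and overlaps the oligodendrocyte cluster at 27.1 CPM (11.7 to 53.5).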

How the data were processed

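The authors sorted GFP-positive cells, made 1 10x 3′ library per condition and deposited a table of UMI counts per gene and cell for each, made with Cell Ranger 3.0.2 against GRCm38/mm10 per the submitters' processing notes. The count tables held 24723113 UMIs in 3086 Control barcodes and 31543330 UMIs in 5081 TBI barcodes.

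Cells with at least 200 detected genes and a UMI total within 3 median absolute deviations were kept. They were integrated and clustered with Seurat 5.3.0 in R 4.3.3 (all cells at resolution 3, lineage and astroglial cells at 0.8, finer clusters at 1.6) and named from marker lists. Scrublet in scanpy 1.11.5 marked 38 Control and 109 TBI cells as doublets, which were kept and left out as an alternative. Counts were summed per population and library over all genes except Malat1 and scaled to 1000000. Intervals are exact Poisson for levels, exact binomial for TBI to Control ratios and Clopper-Pearson for shares. A ratio counts as past 1.5-fold by its size alone, for genes with at least 100 UMIs over both libraries, with no test. A zero count allows up to 3 counts. The scripts were tested on simulated data.

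All 9 factors are named. The neighbours are the 3 genes with the highest correlation among genes with at least 200 UMIs, and the gene lists are described by counts. The factors and lists were chosen with earlier results of these data known. Gene positions are from the GENCODE annotation. Alternatives concerned integration, resolution, doublets, mitochondrial share, depth, scaling, count limit, fold and thinning. A gene of the lists is not reported here.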

Additional observations from a re-analysis of the deposited data

How the results depend on the processing

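No paired analysis was possible because the animals of each condition were pooled into 1 library, so that the replicate numbers in the labels tie no cells to each other; for the same reason no replicate could be left out. Over the alternatives, 61 of 63 values kept the factor's highest population, the exceptions being Neurod4, highest in radial-glia-like cells without doublets or without cells over 10% mitochondrial UMIs. Averaging CPM over cells gave 1097 CPM of Neurod1 and 202.5 CPM of Neurod2 in late neuroblasts, against 1126 and 214.1 CPM, and turned Bhlhe22 in Reln neurons from lower to higher in TBI (ratio 1.076).

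Over 12 populations, 1 factor value was higher and 1 lower past 1.5-fold. These were Bhlhe22 in mural cells, beside 6.68% of all genes higher, and Bhlhe22 in Reln neurons, beside 2.4% of all genes lower. Higher values numbered 2 with the factors kept among the variable genes, 4 at 20 or more UMIs and 31 with no count limit. Lower values numbered 0 without integration, 0 without doublets, 6 at 20 or more UMIs, 17 with no count limit and 7 at 1.25-fold. At 1.25-fold, 5.86 to 11.6% of all genes were lower in the populations with a factor of at least 100 UMIs. A lower count limit admits values that rest on fewer UMIs, and the share of all genes at those limits is not given here. The counts at those limits are therefore not read as a difference between the factors and other genes. Neurod1 in cells with against without Eomes differed by 20.08 points in radial-glia-like cells and 24.1 in cycling progenitors, by 13.08 and 16.7 at 2000 UMIs, and by 27.78 and 36 without thinning, and Bhlhe22 by Neurod1 by 11.62 points, or 26.58 without thinning. Low counts limit Neurod4 and all factors in Reln neurons. The cause of these differences was not tested.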

Other observations

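A further 180 cells, led by Camk2b and Grin2b, could not be named. They had a median of 1623 UMIs and 21.4% mitochondrial UMIs. They held 454 CPM of Neurod1, 230.2 CPM of Bhlhe22, 149 CPM of Neurod2 and 74.6 CPM of Neurod6, with 45.4 CPM of Eomes, 38.9 CPM of Tbr1 and 0 UMIs of Neurod4. Their Neurod2 stood at 175 CPM in Control and 130 CPM in TBI, with a UMI in 20 of the 120 TBI cells. Of the 286 genes tested in these cells, 46.5% were higher and 2.45% lower in TBI past 1.5-fold. The median log2 ratio was 0.510, so no difference between conditions is read from the Neurod2 values.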
